A study of Mus musculus with 24 samples.

Results

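The 9 genes Spi1, Maf, Klf4, Klf2, Pparg, Egr2, Cebpb, Bhlhe40 and Bhlhe41 encode transcription factors that give macrophages their identity and shape their activation. They were taken by symbol, and each was listed in all 24 libraries, among 18063 genes listed for M1 and 17786 for M2 bone marrow-derived macrophages (BMDMs), of which 17109 were common to both. The libraries were RNA-seq of BMDMs from WT C57BL/6 mice and from DRD5-/- mice, in which Drd5, the gene of a dopamine receptor coupled to cAMP production, was disrupted with CRISPR-Cas9 in the whole animal; the mice were 10 weeks old. BMDMs, grown from marrow in L929-conditioned medium, were polarized for 12 h. M1 cells received LPS at 100 ng/ml plus 50 ng/ml of IFN-γ, M2 cells received 10 ng/ml each of the cytokines IL-4 and IL-13, and both were kept without or with 20 µM dopamine (DA). This gave 8 groups of 3 libraries: M1 WT, M1 WT DA, M1 DRD5-/-, M1 DRD5-/- DA, M2 WT, M2 WT DA, M2 DRD5-/- and M2 DRD5-/- DA. All were stimulated, so no group shows resting macrophages. Whether the libraries of a group came from separate mice or cultures is not stated in the sources used here, so the p-values measure the spread between these libraries, which may be technical.

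PU.1, the product of Spi1, is the ETS-family factor that marks out macrophage enhancers, on which the other factors act. MAF restrains self-renewal and drives Il10 and complement genes, while KLF2 and KLF4 are zinc-finger factors known to restrain inflammatory gene expression in myeloid cells. PPARγ, EGR2 and C/EBPβ take part in IL-4-driven alternative activation, C/EBPβ also being induced by LPS, and BHLHE40 and BHLHE41 are related repressors that bind E-boxes and regulate macrophage proliferation.

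The values are deposited FPKM, fragments scaled to transcript length and to the library's mapped total, and their depth in reads is unknown. Each gene was tested with limma on log2(FPKM + 1), and it was past the threshold at a Benjamini-Hochberg adjusted p under 0.001 with a change of at least 1.2-fold on that scale; all adjusted p below are from this test. A gene entered a fit when at least 3 libraries reached 1 FPKM. All 9 factors entered both fits, but in M1 Egr2 did so through only 3 of 12 libraries, 1 of M1 WT DA and 2 of M1 DRD5-/- DA, so its M1 values lie at the filter's edge. Groups without overlap of their libraries were common among all tested genes. With DA the share was 56.5% in M1 WT, 8.73% in M1 DRD5-/-, 76.0% in M2 WT and 45.3% in M2 DRD5-/-. Between genotypes it was 30.9% in untreated M1, 56.2% in M1 with DA, 39.5% in untreated M2 and 79.1% in M2 with DA. The 9 macrophage markers, such as Adgre1, Csf1r and Cd68, were present in every library, and their summed level was 7275 to 8264 FPKM in M1, 8888 to 8919 FPKM in M2 WT DA and 11020 to 11580 FPKM in the other M2 groups. Summed T cell, B cell, dendritic cell and erythroid markers reached at most 0.2, 0.87, 3.27 and 2.55 FPKM. In bulk RNA fewer cells of a type and less RNA per cell cannot be told apart. Drd5 was at 0 to 0.06 FPKM in the 12 M2 libraries, and at 0 in all 6 of DRD5-/-. At this level it is no check of the genotype labels, and Drd5 was not among the genes listed for M1. Nos2, the LPS and IFN-γ target, was at 1935 ± 17.2 FPKM (SD, n = 3) in M1 WT and 0.3267 ± 0.00577 in M2 WT, and Retnla, an IL-4 target, was at 0 in M1 WT and at 103.8 ± 1.15 FPKM in M2 WT.

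The factors covered a wide range of levels, and which of them were abundant depended on the stimulus. In M1 WT, Cebpb stood at 321.9 ± 25.2 FPKM and Spi1 at 286.8 ± 8.51 (SD, n = 3 in each group throughout), with only 2.3% and 2.5% of the 10040 tested genes above them. Maf followed at 92.76 ± 1.1 FPKM and Bhlhe40 at 32.76 ± 0.507. Klf2 (10.52 ± 0.167), Klf4 (10.15 ± 0.79) and Bhlhe41 (9.53 ± 0.425) lay near the middle of the tested genes, and Pparg (2.03 ± 0.03) and Egr2 (0.84 ± 0.0608) near the bottom. In M2 WT, Spi1 was again the highest at 290.9 ± 23.9 FPKM, followed by Bhlhe40 at 103.0 ± 0.254, Pparg at 97.11 ± 1.37, Cebpb at 75.51 ± 6.52 and Egr2 at 50.76 ± 2.28. Bhlhe41 (25.11 ± 0.228), Maf (21.9 ± 0.751), Klf4 (12.53 ± 0.112) and Klf2 (9.48 ± 0.441) were the lower factors of M2 WT. FPKM is scaled by length, so these levels can be compared between genes. Within a group, the coefficient of variation of a factor was at most 12.4%, for Egr2 in M1 DRD5-/- DA.

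**Figure D1:**
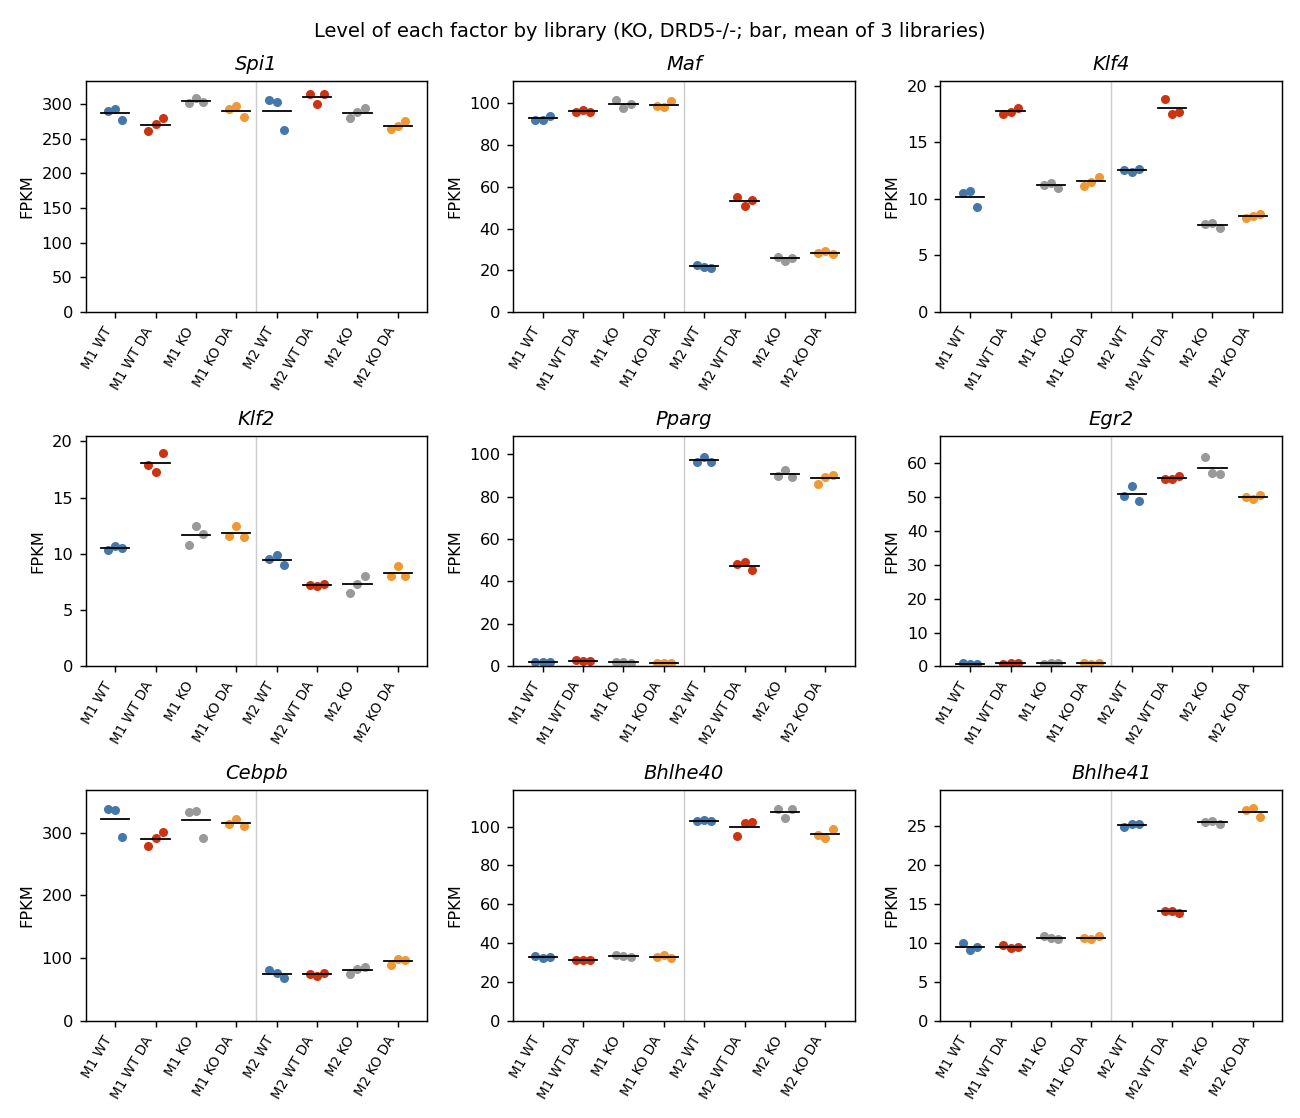
FPKM of the 9 factors in each of the 24 libraries (points), by group, with the mean of 3 libraries as a bar; KO stands for DRD5-/-, and the grey line separates M1 from M2. Pparg, Egr2, Bhlhe40 and Bhlhe41 sit higher in M2, and Maf and Cebpb sit higher in M1. The M2 WT DA points overlap the untreated M2 WT points only for Spi1 and Cebpb.

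Spi1 was the steadiest factor in the deposited FPKM. Its 8 group means ran from 269.0 ± 5.66 FPKM in M2 DRD5-/- DA to 310.0 ± 8.0 in M2 WT DA, a ratio of 1.15, and every neighbouring pair in the order of means overlapped in its libraries. The same ratio of highest to lowest group mean was 2.34 for Klf4, 2.49 for Klf2, 2.83 for Bhlhe41, 3.44 for Bhlhe40, 4.35 for Cebpb, 4.55 for Maf, 55.9 for Pparg and 69.6 for Egr2. Spi1 (GRCm38.p6, chromosome 2, 91082374 to 91115759, plus strand) passed the threshold in none of the 15 comparisons. It did pass between M2 and M1, as lower in M2, after the rescaling of libraries described below.

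Between untreated M2 and M1 WT, 7 of the 9 factors passed the threshold, against 77.5% of all 11148 genes in the joint fit of M1 and M2. This count is near the background. The genes of the joint fit were listed for both stimuli and reached 1 FPKM in at least 3 of the 24 libraries. The 2 stimuli also come from different sets of files with different gene lists, and stimulus and set cannot be told apart. The median gene was 0.39 higher in M2 on the log2 scale, and median-of-ratios scaling, which removes that shift, is given below where it matters. Pparg and Egr2 were the factors with the widest separation. Pparg was at 2.0, 2.06 and 2.03 FPKM in M1 WT and at 96.4, 98.7 and 96.3 in M2 WT (log2 fold change 5.02, SE 0.048, adjusted p = 1.35e-28). Egr2 was at 0.88, 0.87 and 0.77 FPKM in M1 WT and at 50.2, 53.3 and 48.8 in M2 WT (log2 fold change 4.81, SE 0.0475, adjusted p = 2.35e-28). The pseudocount of 1 shrinks both: as a plain ratio of mean FPKM, Pparg was 47.8-fold and Egr2 60.4-fold higher in M2 WT. The repressors Bhlhe40 and Bhlhe41 were higher in M2 WT by 1.62 and 1.31 on the log2 scale. Maf and Cebpb went the other way, from 92.0, 92.3 and 94.0 to 22.7, 21.8 and 21.2 FPKM for Maf (log2 fold change -2.03, adjusted p = 1.08e-24) and from 336.9, 336.0 and 292.8 to 81.8, 76.0 and 68.8 FPKM for Cebpb (log2 fold change -2.08, adjusted p = 1.05e-18). Klf4 was 0.28 higher in M2 WT (adjusted p = 2.32e-06), but -0.13 with median-of-ratios scaling, and 0.22, under 1.2-fold, without M1 WT replicate 3. Spi1 differed by 0.02 (95% interval -0.069 to 0.105), and by -0.43, past the threshold, with that scaling.

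The same comparison was made in DRD5-/- BMDMs and under DA. In untreated DRD5-/- BMDMs, 8 of the 9 passed the threshold (77.2% of all genes), in DRD5-/- with DA also 8 (77.2% of all genes), and in WT with DA 7 (80.3% of all genes), counts again near the background. Maf, Pparg, Egr2, Cebpb, Bhlhe40 and Bhlhe41 kept the direction of untreated WT in each of them. Klf4 did not: it was higher in M2 by 0.28 in untreated WT, lower by -0.49 in untreated DRD5-/- (adjusted p = 3.17e-10) and by -0.40 in DRD5-/- with DA (adjusted p = 8.16e-09), and 0.02 apart in WT with DA (95% interval -0.07 to 0.11), while with median-of-ratios scaling it was lower in M2 in all 4. The gap narrowed with DA in WT for Maf, from -2.03 to -0.84, for Pparg, from 5.02 to 3.70, and for Bhlhe41, from 1.31 to 0.52 on the log2 scale, the last being 0.04 with median-of-ratios scaling. For Klf2 it widened from -0.14 (adjusted p = 0.0334) to -1.21. The ratio of Cebpb to Cebpa, the gene of the related C/EBPα, was 101.0 ± 8.5 in M1 WT and 0.756 ± 0.035 in M2 WT.

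In M1 WT, DA was followed by higher Klf4 and Klf2. They were the 2 factors of 9 past the threshold, against 14.3% of the 10040 genes tested, of which 4.73% were higher and 9.6% lower with DA; higher genes were 33% of the calls, and 55.7% with median-of-ratios scaling. Klf4 (chromosome 4, 55527137 to 55532475, minus strand) was at 10.6, 10.7 and 9.24 FPKM in M1 WT and at 17.5, 17.7 and 18.04 in M1 WT DA. All M1 WT DA libraries were above all M1 WT libraries (log2 fold change 0.75, SE 0.049, adjusted p = 1.93e-08). Of all tested genes, 56.5% had no overlap between these groups. Klf2 (chromosome 8, 72319062 to 72321654, plus strand) was at 10.34, 10.7 and 10.6 FPKM in M1 WT and at 17.9, 17.2 and 18.9 in M1 WT DA, again without overlap (log2 fold change 0.72, SE 0.0523, adjusted p = 5.84e-08). The 2 genes kept about the same proportion to each other, the ratio of Klf4 to Klf2 in FPKM being 0.965 ± 0.078 without and 0.986 ± 0.037 with DA. Neutrophil markers moved with these groups: the 5 markers, mostly S100a8 and S100a9, summed to 32.87 to 42.45 FPKM in M1 WT, 53.28 to 63.98 in M1 WT DA, 14.28 to 17.99 in M1 DRD5-/- and 17.23 to 19.76 in M1 DRD5-/- DA, with Elane at 0 and Mpo at most 0.08. Their part in the result was not tested.

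The sequences around the RefSeq starts of Klf4, Klf2 and Bhlhe41 are shown because Klf4 and Klf2 rose with DA in M1 WT and Bhlhe41 fell in M2 WT. Each runs from 250 bases before to 50 bases after the start, in the direction of transcription, at chr4:55532426-55532725 (minus strand), chr8:72318812-72319111 (plus strand) and chr6:145865371-145865670 (minus strand) of GRCm38.p6. Capitals mark TGACG, the core of the cAMP response element, on either strand (CGTCA on the other), and CACGTG, the E-box bound by BHLHE40 and BHLHE41.
Klf4: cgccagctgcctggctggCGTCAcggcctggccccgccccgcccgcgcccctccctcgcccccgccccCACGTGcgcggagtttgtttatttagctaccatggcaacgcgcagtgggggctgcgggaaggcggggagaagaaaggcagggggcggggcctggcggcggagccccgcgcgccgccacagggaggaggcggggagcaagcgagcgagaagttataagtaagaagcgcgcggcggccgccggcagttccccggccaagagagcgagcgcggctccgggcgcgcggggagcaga
Klf2: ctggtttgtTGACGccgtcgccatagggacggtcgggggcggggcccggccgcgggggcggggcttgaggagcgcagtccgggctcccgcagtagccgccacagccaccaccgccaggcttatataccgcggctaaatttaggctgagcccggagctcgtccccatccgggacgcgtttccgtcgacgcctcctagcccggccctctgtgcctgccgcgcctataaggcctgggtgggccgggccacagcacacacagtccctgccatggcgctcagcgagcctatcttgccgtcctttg
Bhlhe41: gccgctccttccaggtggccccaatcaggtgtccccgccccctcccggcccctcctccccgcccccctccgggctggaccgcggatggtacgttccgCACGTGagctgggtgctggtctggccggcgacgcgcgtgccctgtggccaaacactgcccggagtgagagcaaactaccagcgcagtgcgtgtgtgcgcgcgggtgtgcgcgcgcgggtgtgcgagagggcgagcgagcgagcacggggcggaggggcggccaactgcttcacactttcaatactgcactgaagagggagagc
TGACG begins 232 bases before the start of Klf4 and 241 before that of Klf2, and CACGTG begins 182 bases before the start of Klf4 and 153 before that of Bhlhe41. TGACG was present in 20.8% and CACGTG in 7.15% of the 32851 windows of this length in the RefSeq table. The full element TGACGTCA, which contains TGACG and was present in 1.79% of windows, was not found in any of the 12 windows of Klf4, Klf2, Bhlhe41, Pparg, Egr2 and Cebpb, the 6 factors with windows. Cebpb had 3 TGACG matches in its window, and the 3 Pparg windows had none. Egr2 had overlapping windows with 2 TGACG matches each, and another with CACGTG 27 bases before its start. A match describes the letters and is no evidence of binding.

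The other 7 factors did not pass the threshold with DA in M1 WT. Pparg came nearest, from 2.0, 2.06 and 2.03 to 3.04, 2.44 and 2.75 FPKM, with every DA library above every untreated one (log2 fold change 0.30, SE 0.0682, adjusted p = 0.00231); it was past the threshold with median-of-ratios scaling (0.36, adjusted p = 0.000734). Cebpb was at 278.7, 290.8 and 300.4 FPKM with DA, overlapping the M1 WT libraries (log2 fold change -0.15, adjusted p = 0.0463). Its span (chromosome 2, 167688915 to 167690432, plus strand) overlaps Tmem189 on the opposite strand, which stood at 249.8 ± 4.47 FPKM in M1 WT and 207.3 ± 5.22 in M1 WT DA. Whether counting used strand is not stated in the sources used here, so reads of the 2 genes may not be separable. The spans of Maf, Pparg, Bhlhe40 and Bhlhe41 also overlap annotated genes on the opposite strand. None of those genes was listed with values, and the same limit holds for these 4 factors. Spi1, Maf, Egr2, Bhlhe40 and Bhlhe41 differed by between -0.08 (Spi1) and 0.08 (Egr2) on the log2 scale, and the small differences of Bhlhe40 and Bhlhe41, -0.06 and -0.004, became 0.01 and 0.06 with median-of-ratios scaling.

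In M1 DRD5-/- BMDMs, none of the 9 factors passed the threshold with DA, and 0% of all 10040 genes did by limma; at an unadjusted p under 0.05, 569 genes (5.67%) and, of the factors, 1 (Spi1, -0.07) differed. Klf4 was at 11.2, 11.4 and 10.9 FPKM without and 11.2, 11.5 and 12.0 with DA (log2 fold change 0.04, 95% interval -0.064 to 0.146), and Klf2 at 10.8, 12.46 and 11.7 without and 11.6, 12.51 and 11.5 with DA (0.03, 95% interval -0.0849 to 0.139). The libraries overlapped for both. The difference of the DA effects between WT and DRD5-/- was itself past the threshold for these 2 factors, against 8.38% of all genes: 0.71 (SE 0.0693, adjusted p = 3.28e-06) for Klf4 and 0.70 (SE 0.0739, adjusted p = 7.15e-06) for Klf2. For Pparg it was 0.39 (adjusted p = 0.00708).

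In M2 WT, 5 of the 9 factors passed the threshold with DA, against 46.3% of the 10735 genes tested (25.9% higher and 20.4% lower), so the count is near the background, which was itself higher than in M1 WT. Maf and Klf4 rose, and Pparg, Bhlhe41 and Klf2 fell. Maf (chromosome 8, 115703253 to 115706894, minus strand) was at 22.7, 21.8 and 21.2 FPKM in M2 WT and at 55.2, 50.8 and 53.6 in M2 WT DA, with no overlap (log2 fold change 1.24, SE 0.0386, adjusted p = 1.57e-12). Its level with DA was still under the lowest M1 library, 92.0 FPKM. Pparg (chromosome 6, 115360879 to 115490404, plus strand) was at 96.4, 98.7 and 96.3 FPKM in M2 WT and at 48.1, 49.1 and 45.3 in M2 WT DA, again with no overlap (log2 fold change -1.02, SE 0.0314, adjusted p = 1.48e-12). The ratio of Maf to Pparg in FPKM was 0.226 ± 0.0087 without and 1.12 ± 0.079 with DA, so the factor that was the lower of the pair in M2 WT was at or above the other in M2 WT DA (lowest ratio 1.03). The 5 fibroblast markers, in M2 mostly Dcn, summed to 124.8 to 127.2 FPKM in M2 WT and 102.1 to 103.2 in M2 WT DA. They summed to 78.63 to 80.71 FPKM in M2 DRD5-/-, 86.24 to 87.49 in M2 DRD5-/- DA and 4.13 to 4.82 in M1. The sum of the macrophage markers, mostly Lyz2, was also lower in M2 WT DA than in M2 WT. Lyz2 (6799 to 4753 FPKM), Csf1r (984.8 to 696.8) and Cd14 (154.7 to 57.39) were lower past the threshold. Itgam (132.4 to 198.1 FPKM) and Mrc1 (305.7 to 537.3) were higher past it, and Cd68 (2231 and 2205) did not pass. The part of both sums in the M2 results was not tested.

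Bhlhe41 fell while its relative Bhlhe40 did not pass the threshold. Bhlhe41 (chromosome 6, 145858243 to 145865420, minus strand) was at 24.9, 25.2 and 25.3 FPKM in M2 WT and at 14.2, 14.2 and 13.9 in M2 WT DA (log2 fold change -0.79, SE 0.0278, adjusted p = 5.63e-12), with no overlap. Bhlhe40 (chromosome 6, 108660629 to 108666925, plus strand) was at 102.9, 103.3 and 102.9 FPKM without and 94.9, 102.0 and 102.6 with DA (log2 fold change -0.05, 95% interval -0.112 to 0.0211). The ratio of Bhlhe40 to Bhlhe41 was 4.1 ± 0.034 in M2 WT and 7.09 ± 0.34 in M2 WT DA.

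Klf4 and Klf2 moved in opposite directions in M2 WT. Klf4 was at 12.6, 12.4 and 12.6 FPKM without and 18.9, 17.5 and 17.7 with DA (log2 fold change 0.49, SE 0.0385, adjusted p = 3.63e-08). Klf2 was at 9.52, 9.90 and 9.02 FPKM without and 7.21, 7.12 and 7.34 with DA (log2 fold change -0.35, SE 0.0616, adjusted p = 0.000144). Neither gene's groups overlapped, as was so for 76.0% of all tested genes. The call of Klf2 rests on M2 WT replicate 2, without which it was -0.32 with adjusted p = 0.00101. The ratio of Klf4 to Klf2 was 1.32 ± 0.073 in M2 WT and 2.49 ± 0.11 in M2 WT DA. In the deposited FPKM, Klf4 reached like levels with DA under both stimuli, 17.74 ± 0.274 in M1 WT DA and 18.01 ± 0.741 in M2 WT DA. With median-of-ratios scaling Klf4 was lower in M2 WT DA (log2 fold change -0.48), and stimulus and set of files cannot be told apart. Klf2 had its highest group mean in M1 WT DA and its lowest in M2 WT DA, where it overlapped M2 DRD5-/-.

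**Figure D2:**
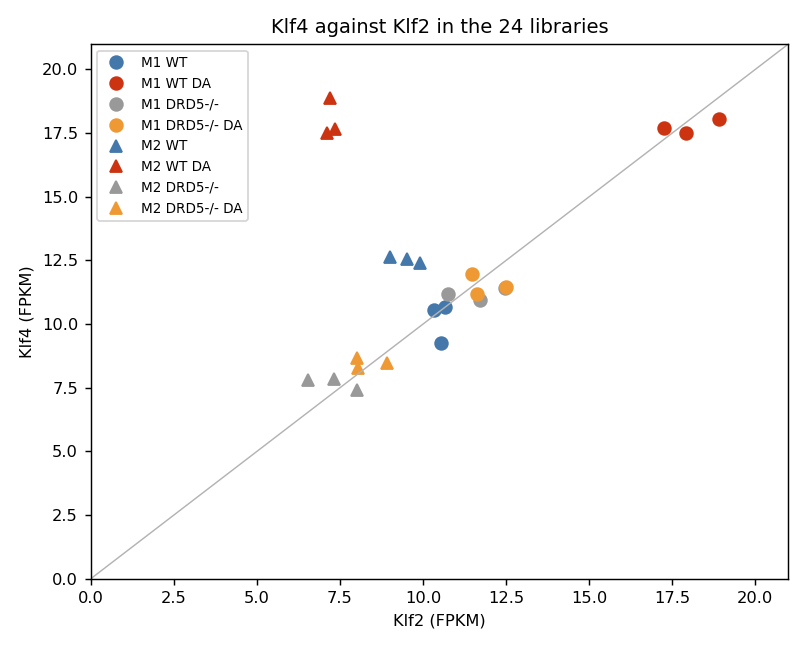
Klf4 (vertical axis) against Klf2 (horizontal axis), both in FPKM, in the 24 libraries; circles are M1, triangles M2, colors give genotype and DA, and the grey line marks equal levels. The M1 libraries lie along the line with the M1 WT DA libraries near 18 on both axes, while the M2 WT DA libraries combine Klf4 of at least 17.5 with Klf2 of at most 7.34.

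Egr2, Cebpb and Spi1 did not pass the threshold with DA in M2 WT. Egr2 (chromosome 10, 67534469 to 67542188, plus strand) was at 55.3, 55.3 and 56.2 FPKM with DA, above the 3 untreated libraries (log2 fold change 0.13, SE 0.0367, adjusted p = 0.00565). Cebpb was at 74.2, 71.3 and 76.7 FPKM with DA, within the range of the untreated libraries (log2 fold change -0.02, 95% interval -0.158 to 0.11). Spi1 was at 305.6, 303.8 and 263.4 FPKM without and 314.3, 300.8 and 314.9 with DA (log2 fold change 0.09, adjusted p = 0.0773).

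In M2 DRD5-/- BMDMs, none of the 9 factors passed the threshold with DA, against 4.02% of all genes (432 of 10735); at an unadjusted p under 0.05, 7 of them differed, against 42.6% of all genes at that cut. Maf was at 26.5, 24.6 and 25.9 FPKM without and 28.4, 29.1 and 27.9 with DA, without overlap (log2 fold change 0.14, SE 0.0386, adjusted p = 0.0121). Pparg was at 89.6, 92.6 and 89.4 FPKM without and 86.0, 89.2 and 90.3 with DA, overlapping (log2 fold change -0.03, 95% interval -0.0998 to 0.0354). Bhlhe41 was at 25.6, 25.7 and 25.3 FPKM without and 27.1, 27.3 and 26.2 with DA (log2 fold change 0.07, adjusted p = 0.059). Egr2 was lower in all 3 DA libraries, 50.0, 49.4 and 50.7 FPKM against 61.8, 56.9 and 56.7, with an adjusted p of 0.000577 but a log2 fold change of -0.22, under 1.2-fold. Bhlhe40 differed by -0.16 (adjusted p = 0.00176), Cebpb by 0.23 (adjusted p = 0.0137), Klf4 by 0.12 (adjusted p = 0.0247) and Klf2 by 0.17 (adjusted p = 0.0466).

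**Figure D3:**
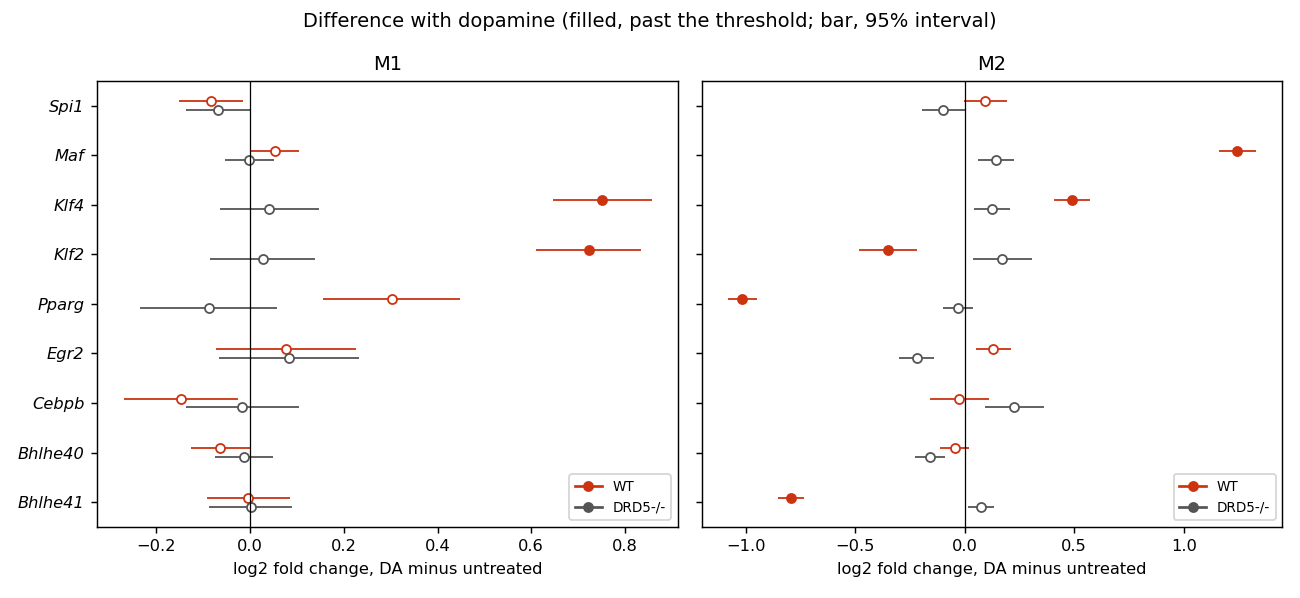
Log2 fold change of each factor with DA (horizontal axis, DA minus untreated, on log2(FPKM + 1)) in WT and DRD5-/- BMDMs, for M1 (left) and M2 (right); filled points are past the threshold and bars are 95% intervals. Filled points occur only in WT: Klf4 and Klf2 in M1, and Maf, Klf4, Klf2, Pparg and Bhlhe41 in M2.

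The DA effects of the genotypes differed in M2 for 6 of the 9 factors, against 43.2% of all genes. The difference, WT minus DRD5-/-, was 1.10 for Maf (SE 0.0546, adjusted p = 5.08e-10), 0.37 for Klf4 (adjusted p = 3.84e-05), 0.35 for Egr2 (adjusted p = 3.77e-05), -0.52 for Klf2 (adjusted p = 0.00011), -0.87 for Bhlhe41 (adjusted p = 1.94e-10) and -0.99 for Pparg (SE 0.0444, adjusted p = 1.83e-10). That of Egr2 combined a value of 0.13 in WT with -0.22 in DRD5-/-, neither past the threshold alone. Before DA, Egr2 was 0.20 higher in DRD5-/- than in WT (58.47 against 50.76 FPKM, without overlap, adjusted p = 0.00115). With DA, DRD5-/- was at 50.01 FPKM. Cebpb differed by -0.25 (adjusted p = 0.0215), Spi1 by 0.19 (adjusted p = 0.0172) and Bhlhe40 by 0.11 (adjusted p = 0.034).

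Between the stimuli, the DA effects in WT, M2 minus M1, differed past the threshold for 4 factors, against 45.9% of all genes: Maf by 1.19, Bhlhe41 by -0.79, Klf2 by -1.07 and Pparg by -1.32 (adjusted p from 3.77e-16 for Maf to 1.37e-10 for Klf2). Klf2 rose in M1 and fell in M2. For Klf4 the difference was -0.26 (adjusted p = 0.000666), at the limit of 1.2-fold, and it was past it without M1 WT replicate 1 (-0.29), M1 WT replicate 2 (-0.30) or M2 WT DA replicate 1 (-0.29).

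The genotypes were then compared directly, using the same untreated and DA-treated libraries, so these values are not independent of those above. In untreated M1 BMDMs none of the 9 factors passed the threshold between DRD5-/- and WT, against 0.936% of all genes; the farthest was Bhlhe41, at 10.9, 10.7 and 10.5 FPKM in DRD5-/- and 9.95, 9.10 and 9.54 in WT (log2 fold change 0.15, adjusted p = 0.0338), and at an unadjusted p under 0.05, 5 of them differed, against 25.5% of all genes at that cut. In M1 with DA, 3 factors were lower in DRD5-/- (18.5% of all genes passed): Klf4 by -0.58, Klf2 by -0.56 and Pparg by -0.45 (adjusted p = 2.33e-07, 5.71e-07 and 7.23e-05). In Pparg, M1 DRD5-/- DA was at 1.82, 1.59 and 1.80 FPKM, below the 3.04, 2.44 and 2.75 of M1 WT DA.

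In untreated M2 BMDMs, Klf4 was the factor past the threshold, against 5.51% of all genes. It was at 7.81, 7.83 and 7.42 FPKM in DRD5-/- and at 12.6, 12.4 and 12.6 in WT, without overlap (log2 fold change -0.64, SE 0.0385, adjusted p = 4.35e-08). Klf4 thus differed between the genotypes before any DA was added. Klf2 was also lower in each DRD5-/- library, 6.54, 7.32 and 8.02 against 9.52, 9.90 and 9.02 FPKM (log2 fold change -0.34, adjusted p = 0.00103), and passed without M2 DRD5-/- replicate 3 (-0.40, adjusted p = 0.000385), which raised the count from 1 to 2. Maf was higher in each DRD5-/- library (log2 fold change 0.22, adjusted p = 0.000814), under 1.2-fold, and past it with median-of-ratios scaling (0.27).

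With DA, 5 factors differed between M2 DRD5-/- and M2 WT, against 49.7% of all genes. Klf4 and Maf were lower in DRD5-/- by -1.005 and -0.88 on the log2 scale, and Bhlhe41, Pparg and Cebpb were higher by 0.89, 0.88 and 0.35. Cebpb was at 89.5, 98.0 and 96.6 FPKM in M2 DRD5-/- DA, above the 74.2, 71.3 and 76.7 of M2 WT DA (adjusted p = 0.000148); its call was lost without M2 WT DA replicate 2 (0.32, adjusted p = 0.00108) or M2 DRD5-/- DA replicate 2 (0.32, adjusted p = 0.00104). Spi1 differed by -0.20 (adjusted p = 0.00103), under 1.2-fold.

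**Figure D4:**
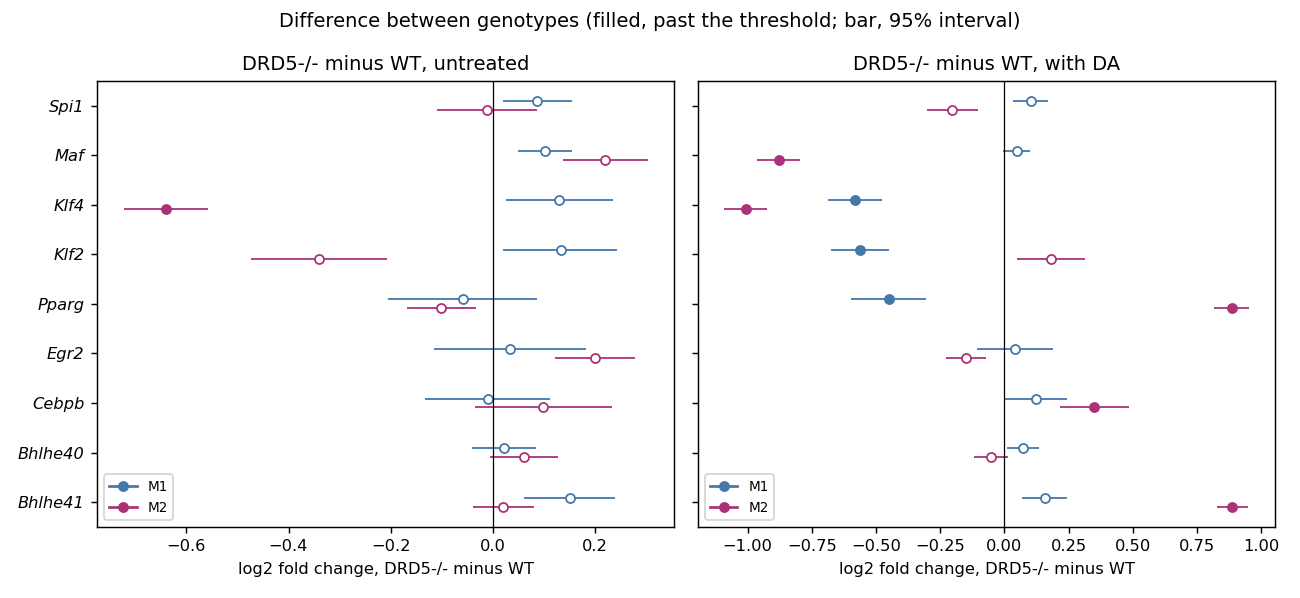
Log2 fold change of each factor between genotypes (horizontal axis, DRD5-/- minus WT, on log2(FPKM + 1)) without DA (left) and with DA (right), for M1 and M2; filled points are past the threshold and bars are 95% intervals. Without DA the filled point is Klf4 in M2, at -0.64; with DA there are 3 in M1 and 5 in M2.

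Relatives of the factors and other lineage factors were read from 2 lists. The counts of these and the following lists stand against the share of all genes past the threshold with DA, which was 4.73% higher and 9.6% lower in M1 WT and 25.9% higher and 20.4% lower in M2 WT. Of 19 tested relatives, 3 were higher and 1 lower with DA in M1 WT, with a median log2 fold change of 0.03 against -0.07 over all genes. Klf10, a further KLF-family gene, was higher (10.44 ± 0.356 to 16.56 ± 0.537 FPKM, log2 fold change 0.62), as were Klf6 and Cebpa (3.177 ± 0.18 to 4.727 ± 0.132 FPKM, 0.46), and Nab2, a corepressor of EGR proteins, was lower (23.58 ± 0.492 to 16.48 ± 0.567 FPKM, -0.49). In M2 WT, 5 of 19 were higher and 6 lower (median -0.21 against 0.03 over all genes), near the share of all genes. Klf10 again had the largest change (12.21 ± 0.754 to 33.59 ± 0.173 FPKM, log2 fold change 1.39), followed by Ppard, the gene of PPARδ (9.73 ± 0.704 to 5.123 ± 0.127 FPKM, -0.81), and Klf9 (10.6 ± 0.31 to 5.977 ± 0.214 FPKM, -0.73). Cebpa, higher with DA in M1 WT, was lower in M2 WT (99.7 ± 4.1 to 67.46 ± 1.13 FPKM, -0.56). Of 19 other lineage factors, 5 were higher and 2 lower with DA in M1 WT (6 and 1 with median-of-ratios scaling; median 0.11), led by Tfec of the MITF family (8.927 ± 0.244 to 15.53 ± 0.567 FPKM, 0.74) and Spic, the PU.1-related factor of iron-handling macrophages (4.343 ± 0.196 to 7.54 ± 0.308 FPKM, 0.68). In M2 WT, 6 were higher and 9 lower (median -0.24), and the largest changes were rises of Id3 (9.323 ± 0.711 to 43.15 ± 2.19 FPKM, 2.10), Myc (22.74 ± 0.89 to 65.42 ± 1.72 FPKM, 1.48) and Mef2a (37.6 ± 1.18 to 75.57 ± 0.511 FPKM, 0.99).

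Genes known as targets of the factors were counted in 4 further lists, some of which share genes, and are again to be read against 14.3% of all genes past the threshold in M1 WT and 46.3% in M2 WT. Of the PPARG targets, 4 of 11 were higher and none lower with DA in M1 WT (median -0.02), and 1 of 12 was higher and 8 were lower in M2 WT (median -0.58 against 0.03 over all genes). In M1 WT the lipid genes Cd36 (122.4 ± 1.04 to 227.8 ± 6.52 FPKM, log2 fold change 0.89), Lpl (209.5 ± 4.13 to 375.6 ± 11.3 FPKM, 0.84) and Fabp4 (28.05 ± 2.79 to 49.63 ± 3.59 FPKM, 0.80) rose. In M2 WT the cholesterol exporters Abca1 (12.97 ± 0.524 to 2.34 ± 0.0173 FPKM, -2.06) and Abcg1 (103.5 ± 0.355 to 29.94 ± 0.725 FPKM, -1.76) and the fatty acid carrier Fabp4 (189.2 ± 14.9 to 56.71 ± 1.47 FPKM, -1.72) fell. Fabp4 therefore rose in M1 WT and fell in M2 WT. Cd36 rose in M2 WT too (329.8 ± 6.92 to 560.5 ± 5.66 FPKM, 0.76), as the 1 target higher there. Lpl did not pass the threshold in M2 WT (0.002).

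Of the KLF2 and KLF4 targets, 3 of 7 were higher in M1 WT (Arg1, Mrc1 and S1pr1; 4.73% of all genes) and 4 of 7 in M2 WT (median 0.31; 25.9% of all genes), with none lower in either. Arg1, the arginase gene, was the largest in both, at 64.39 ± 0.386 and 180.5 ± 4.79 FPKM in M1 WT without and with DA (1.47) and at 28.94 ± 0.795 and 591.8 ± 7.34 FPKM in M2 WT (4.31), and Cdkn1a, a cell cycle inhibitor, rose in M2 WT from 61.63 ± 1.02 to 120.8 ± 1.09 FPKM (0.96). Mrc1, the mannose receptor gene, rose in both, by 0.63 in M1 WT and from 305.7 ± 7.98 to 537.3 ± 4.91 FPKM (0.81) in M2 WT. Of the PU.1 targets, 3 of 17 were higher and none lower in M1 WT (Msr1 0.58, Csf1r 0.41 and Tlr4 0.35), 5 being higher with median-of-ratios scaling, and 2 were higher and 8 lower in M2 WT (median -0.24), including the scavenger receptor gene Msr1 (27.74 ± 0.401 to 145.3 ± 1.92 FPKM, 2.35), Csf3r (64.03 ± 0.642 to 22.34 ± 0.595 FPKM, -1.48) and Cd14 (154.7 ± 3.6 to 57.39 ± 1.24 FPKM, -1.41). Spi1 itself did not pass the threshold in either. Of the C/EBPβ targets, 3 of 12 were higher and 3 lower in M1 WT (Il6 from 22.03 ± 0.391 to 12.73 ± 1.08 FPKM, -0.75), and 5 of 9 were higher and 2 lower in M2 WT (median 0.32), with Il1b at 2.81 ± 0.193 and 0.11 FPKM (-1.78).

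Of the alternative activation genes driven by IL-4 and STAT6, 2 of 13 were higher and 3 lower with DA in M1 WT (2 and 1 with median-of-ratios scaling), and 5 of 16 were higher and 6 lower in M2 WT (median -0.065), the latter near the 25.9% and 20.4% of all genes. In M2 WT, Mgl2, a lectin gene, rose from 67.57 ± 0.978 to 395.2 ± 8.82 FPKM (2.53), Ccl22, a chemokine gene, fell from 7.213 ± 0.631 to 0.7233 ± 0.0513 FPKM (-2.25), and Ccl22 also fell in M1 WT (54.1 ± 0.899 to 34.9 ± 1.09 FPKM, -0.62). Retnla was at 103.8 ± 1.15 FPKM in M2 WT and 29.33 ± 0.933 in M2 WT DA, and Chil3 at 44.76 ± 1.48 and 61.16 ± 0.763. In the M1 DRD5-/- BMDMs no gene of the 7 lists described here passed the threshold with DA. In M2 DRD5-/- these lists held between 0 and 5 genes that were higher and at most 1 that was lower. Of all genes, 3.37% were higher and 0.652% lower. The highest count was that of the other lineage factors, with 5 of 19 higher and none lower. Among them Tfec rose by 0.62, against 0.31 in M2 WT. Arg1, an alternative activation gene, rose by 0.49, against 4.31 in M2 WT. Of the KLF2 and KLF4 targets, 2 of 7 were higher, Arg1 and S1pr1 (0.53, against -0.15 in M2 WT), and none lower.

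**Figure D5:**
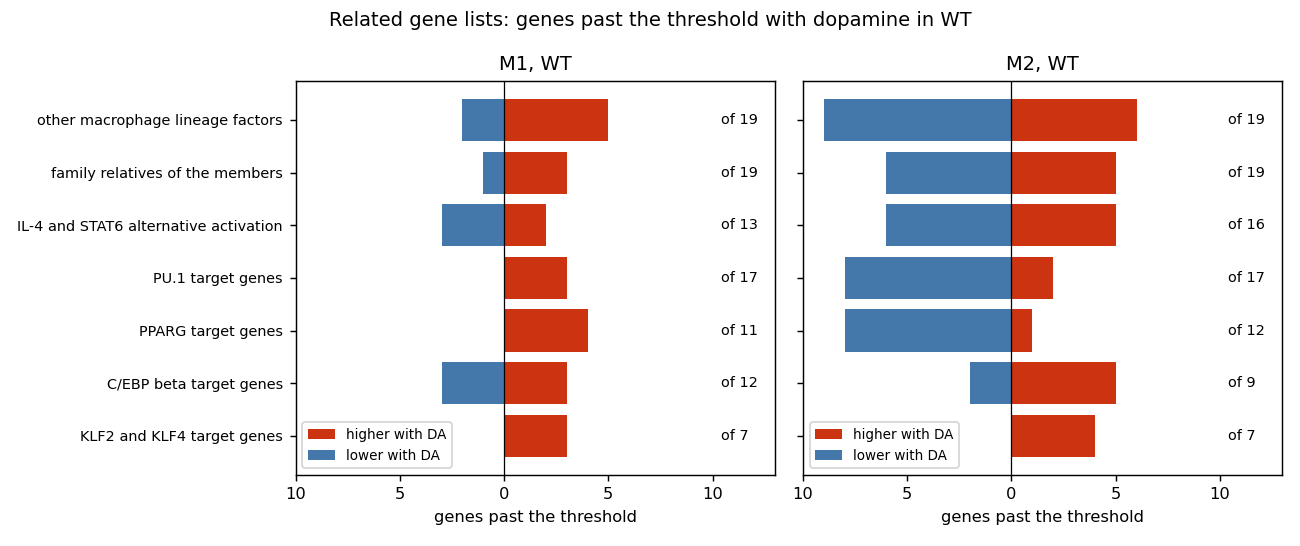
Number of genes past the threshold with DA in WT (horizontal axis; right, higher with DA; left, lower) for 7 lists of relatives, lineage factors and known targets, in M1 and M2, with the number tested beside each. The PPARG targets have 4 higher and none lower in M1 but 1 higher and 8 lower in M2.

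Across the 24 libraries, the patterns of the factors followed the stimulus to differing degrees, as described by Pearson's r of log2(FPKM + 1); the points share the split into M1 and M2 files, so no p is given. Egr2 and Bhlhe40 had r = 0.998, Pparg and Egr2 0.989, Egr2 and Cebpb -0.992 and Maf and Bhlhe41 -0.978. Klf4 and Klf2 had r = 0.416, and Spi1 was between -0.26 (with Klf2) and 0.21 (with Klf4). The genes most like Klf4 were Plec (0.966), Capn2 (0.935) and Ptprn (0.903), Clmp (0.971) and Layn (0.947) were among those most like Klf2, and those most like Spi1 were Mrpl4 (0.822), Cfl1 (0.814) and Dapk3 (0.789). Maf was closest to Eif4ebp1 (0.992), Fanca (0.992) and Tgm2 (0.991), and Cebpb to Ccdc71l (0.996), Vegfa (0.996) and Slc11a1 (0.995). Pparg was closest to Dnase2a, Hexa and Rasa3 (0.999 each), while Bhlhe40 was close to Ankrd13b and Tmem273 (0.998 each), and Bhlhe41 was closest to Vsir (0.996), Ddhd1 (0.996) and Gabarapl1 (0.995). The closest genes to Egr2 were Atp6v0a1, Fam198b and Lfng.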

How the data were processed

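RNA-seq of 24 BMDM libraries was used. Per the study's methods, the authors sequenced on a BGISEQ-500, mapped with HISAT2 to GRCm38.p5 and normalized counts to FPKM; the submitters' processing notes name Bowtie2 2.2.5 and GRCm38.p6. The authors deposited FPKM per gene and library, without read counts, so depth is unknown. Genes at 1 FPKM or more in at least 3 libraries were tested (10040 in M1, 10735 in M2, 11148 in the joint fit of M1 and M2).

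limma 3.58.1 (R 4.3.3) fitted log2(FPKM + 1) with a mean per group and an intensity trend, separately by stimulus, with Benjamini-Hochberg adjustment over all genes (adjusted p under 0.001 and at least 1.2-fold). Fold changes on this scale understate changes of low genes. Alternatives were a pseudocount of 0.1, no filter, median-of-ratios scaling, adjusted p under 0.05, a replicate block, the compared groups alone, and leaving out each library. The fit was tested on simulated data. The genes named were the 9 factors, up to 3 genes per list and stimulus with the largest change with DA in WT past the threshold, the 3 closest patterns per factor, 5 polarization genes and Drd5; relatives could also be named. Klf6 and the Cebpa value in M2 were named as relatives. A list of target genes and some genes that the rule names are not reported here. The factors and lists were chosen with earlier results of these data known. Positions and promoter windows are from RefSeq (GRCm38.p6), and overlapping genes from GENCODE M21; windows of Spi1, Maf and Bhlhe40 were not used here. Python 3.11.15, numpy 2.4.6, pandas 2.3.3 and matplotlib 3.10.9 were used.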

Additional observations from a re-analysis of the deposited data

Results flagged for a closer look

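The effect of DA differed between the genotypes or the stimuli, by limma's test of the difference itself, for these factors. In M1, the effect in WT minus that in DRD5-/- was 0.711 for Klf4 and 0.696 for Klf2 on the log2 scale. In M2 it was 1.1 for Maf, 0.365 for Klf4, 0.35 for Egr2, -0.521 for Klf2, -0.866 for Bhlhe41 and -0.985 for Pparg. In WT, the effect in M2 minus that in M1 was 1.19 for Maf, -0.789 for Bhlhe41, -1.07 for Klf2 and -1.32 for Pparg. The largest adjusted p among these was 0.00011, for Klf2 in M2. No group had more than 3 libraries, so single libraries were not tested as outliers.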

How the results depend on the processing

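The number of factors past the threshold stayed within 1.5 times its reported value in 14 of the 15 comparisons under every alternative run; the exception was untreated M2 DRD5-/- against WT, where 1 factor became 2 with median-of-ratios scaling, with an adjusted p under 0.05 (2), and over a range of 1 to 2 when a library was left out. With a replicate block the counts did not change (2 with DA in M1 WT, 5 in M2 WT). Same-numbered libraries shared no deviation on average: the mean correlation of their deviations from the group means was -0.021 in M1 and -0.016 in M2. Single pairs ran from -0.178 to 0.103 in M1 and from -0.169 to 0.179 in M2. A mean over such pairs cannot show whether the libraries were paired.

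Sign changes with a shift under the SE and no pass in either setting were left out of the following count. Median-of-ratios scaling otherwise turned the sign of 12 differences. With DA in M1 WT these were Bhlhe40 (0.00872) and Bhlhe41 (0.0634), and for WT minus DRD5-/- in M1 Spi1 (0.0619), Bhlhe40 (0.0254) and Bhlhe41 (0.066). Between genotypes they were Maf in M1 with DA (-0.0209) and Spi1 in untreated M2 (0.0404). For M2 minus M1 they were Spi1 (-0.431) and Klf4 (-0.131) in untreated WT and Spi1 (-0.329) and Klf4 (-0.48) in WT with DA, and for the DA effects in WT, M2 minus M1, Bhlhe40 (-0.0571). Leaving out libraries moved untreated Cebpb, M1 DRD5-/- minus WT, between -0.077 and 0.0564, the highest value being without M1 DRD5-/- replicate 3. With that scaling Klf2 in untreated WT passed for M2 minus M1 (-0.55). Spi1 passed for M2 minus M1 in untreated WT (-0.43), WT with DA (-0.33), untreated DRD5-/- (-0.50) and DRD5-/- with DA (-0.55). In WT with DA, Klf4 passed as well (-0.48) and Bhlhe41 no longer did (0.04). Without the expression filter, the adjusted p of Cebpb between M2 genotypes with DA was 0.00103. For the DA effects in WT, M2 minus M1, Klf4 passed with a pseudocount of 0.1 (-0.28) and with the scaling (-0.35). The causes were not tested, and the unknown depth limits the low values, such as Egr2 in M1.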
